A study of Mus musculus with 2 samples.

Results

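The clustered histone genes of the mouse, named here by their older symbols (Hist1h to Hist4h), were followed in poly(A)-selected RNA of the stomach. Members were all genes listed in both deposited gene tables whose GENCODE M21 symbol began with Hist1h, Hist2h, Hist3h or Hist4h. There were 67 of them among 43346 mouse genes, 64 annotated as protein-coding and 3 as pseudogenes. The annotation held 70 such symbols, and the other 3 (Hist2h2bb, Hist1h2bm and Hist1h2bh) were not analysed here. The 67 genes comprised 20 for H2A, 16 for H2B, 13 for H4, 12 for H3 and 6 for the linker histone H1. By cluster, 54 were Hist1 genes, 9 were Hist2 genes, 3 were Hist3 genes and 1 was a Hist4 gene.

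The RNA came from stomach tissue of adult C57BL/6J mice at 8 weeks of age, an inbred strain, with no treatment named in the labels. Both libraries (replicates 1 and 2) belong to 1 group, and each was labelled a pool of males and females. RNA above 200 nucleotides was selected for poly(A), depleted of ribosomal RNA and sequenced with strand information as paired reads of 76 bases. The labels give each library its own biosample but the same donor record, so the spread given here is that between these libraries, and with 1 group no contrast or test between conditions exists.

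Core histones H2A, H2B, H3 and H4 form the nucleosome, and H1 binds the linker DNA between nucleosomes. The clustered genes are the replication-dependent ones: they lack introns in general, are transcribed mostly in S phase, and their mature mRNA ends just after a conserved stem-loop instead of in a poly(A) tail. The stem-loop is bound by SLBP, and the pre-mRNA is cut after it by a complex guided by the U7 small nuclear RNA. Some clustered genes can also give polyadenylated mRNA in differentiated cells, through poly(A) signals further along the gene. The levels below are those of the poly(A)-selected fraction. In a bulk sample, fewer cells that use a gene and less RNA per cell cannot be told apart.

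The stem-loop was searched for in the GENCODE M21 transcripts of all members, because it is the element that sets where such an mRNA ends. It was found after the coding sequence in 44 of 67 genes, in 40 of them with no mismatch to the histone stem-loop consensus of 16 bases. It began 21 to 58 bases after the stop codon, with a median of 31.5 bases. The examples below were chosen to show the main forms, with up to 5 flanking bases on each side and the stem-loop in capitals.
Hist2h2aa1: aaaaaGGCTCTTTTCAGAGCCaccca
Hist1h2ap: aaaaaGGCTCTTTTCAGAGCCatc
Hist2h3c2: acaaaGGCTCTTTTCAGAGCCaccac
Hist1h1c: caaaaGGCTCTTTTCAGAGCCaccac
Hist1h2bk: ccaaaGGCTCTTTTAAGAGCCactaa
Hist1h4d: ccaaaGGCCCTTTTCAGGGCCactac
Hist1h3g: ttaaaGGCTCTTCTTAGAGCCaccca
Hist1h4a: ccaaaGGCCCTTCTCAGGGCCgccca

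The form printed for Hist2h2aa1 was the commonest, with 24 genes, 10 of them for H2A, 6 for H2B, 5 for H3, 3 for H1 and none for H4. The form of Hist1h4d was held by 7 genes, all of them for H4. The form of Hist1h2bk was held by 6 genes, of which 3 were for H3, 2 for H2B and 1 for H1. Hist1h3g and Hist1h4a each carried 1 mismatch to the consensus and were the sole genes with their forms. The annotated transcript of Hist1h2ap stopped 3 bases after the stem-loop, whereas that of Hist1h1c went on for 840 bases.

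RNA of the family was present in the poly(A)-selected libraries and concentrated in few genes. TPM (a transcript's share of all transcripts, scaled by its length) of the 67 genes summed to 1775.73 in replicate 1 and 1141.37 in replicate 2, or 1459 ± 449 (SD, n = 2). That was 0.178% and 0.114% of all transcripts. In expected read pairs the sums were 39493 and 31566, or 0.0765% and 0.0512% of 51633658 and 61635975 mouse read pairs. The level of the family was thus higher in replicate 1. The parietal cell genes Atp4a and Atp4b were also higher in replicate 1, with a summed TPM of 4968 against 2710, and the chief cell genes Pgc, Gif and Chia1 were higher in replicate 2, with 103687 against 151952. The endocrine genes Gast, Sst and Ghrl (3699 against 2485) and the forestomach genes Krt13 and Lor (1686 against 824, with Lor at 1055.86 against 280.58) were higher in replicate 1 as well. The pit cell genes Muc5ac, Tff1, Gkn1 and Gkn2 summed to 50690 and 53212, and the neck cell gene Muc6 stood at 220.97 and 218.14. The part of these cell types in the difference was not tested.

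RNAs that are known to lack a tail remained in the libraries after selection for poly(A). Without an unselected library, how much of them the selection removed cannot be told. Of 13 such genes listed, 6 reached TPM 1 in both libraries, beside 25.2% of all mouse genes. Rny1 had 2 and 5 read pairs and Rny3 had 13 and 3, yet both were listed at 0 TPM, so TPM does not give their level. The lengths of the 13 were not compared with the size selection. Together the 13 summed to 15609 and 16233 TPM, above the whole histone family. Rn7s1 and Rn7s2 were each listed at 3458 and 5178 TPM, and shared reads left their counts partly undecided. Rn7sk, which holds back a transcription elongation factor, stood at 5719 and 4042 TPM, and Rmrp, the RNA of an RNA-processing enzyme, at 2425 and 1492. Whether the histone RNA measured here carried a poly(A) tail was not tested.

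A TPM of 1 or more in both libraries was reached by 46 of the 67 genes. The same limit was reached by 25.2% of all mouse genes and by 48.9% of protein-coding genes. Another 4 members passed it in replicate 1 alone and 2 in replicate 2 alone, and 15 were below it in both. The median member stood at 4.59 and 3.71 TPM, beside 1.04 and 1.19 for the median protein-coding gene. A TPM of 10 or more in both libraries was reached by 16 members and one of 100 or more by 5. Those 5 held 70.8% of the family's TPM in replicate 1 and 66.5% in replicate 2, and the top 10 held 81.8% and 77.9%.

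**Figure D1:**
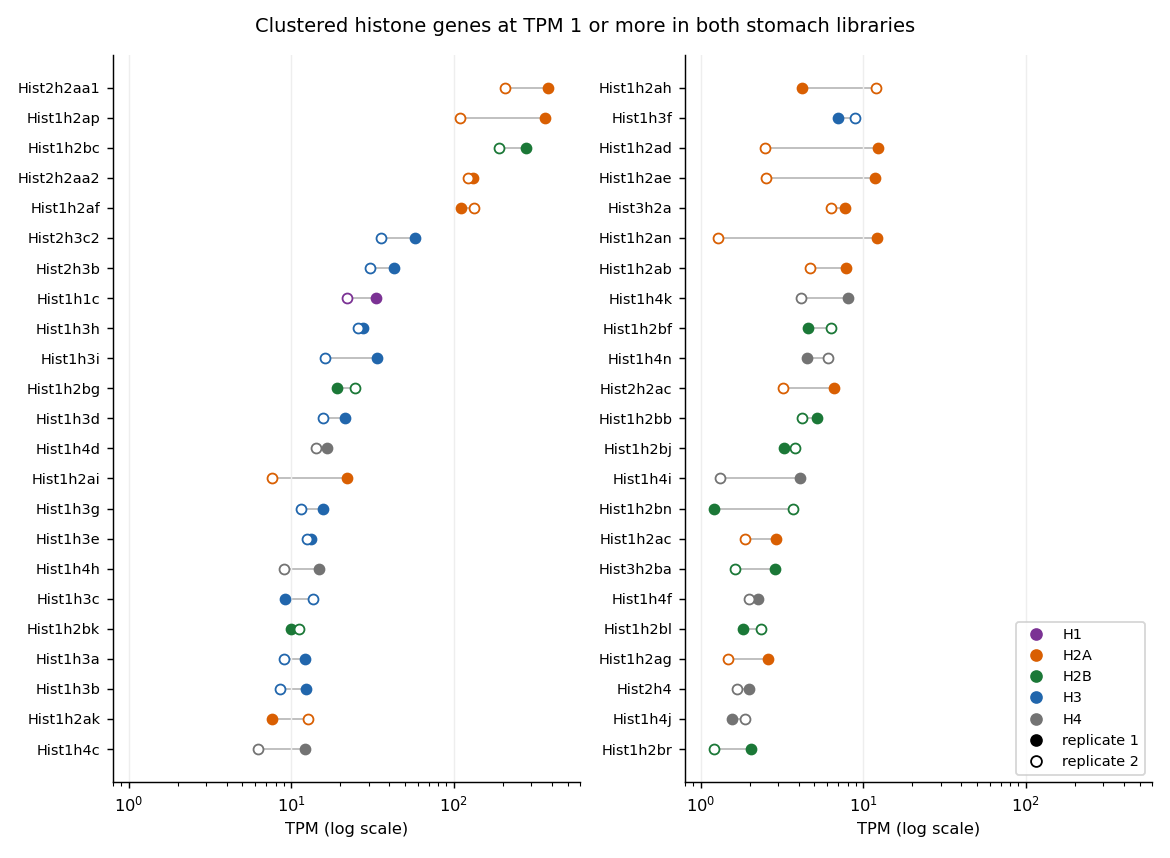
TPM on a log axis of the 46 clustered histone genes that reached TPM 1 in both stomach libraries, ordered by mean level, with filled points for replicate 1, open points for replicate 2 and colour for the histone class. The leading 5 genes all lie above 100 TPM in both libraries and no other gene reaches 60; several H2A genes near 10 TPM have widely separated points.

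Among the 5 leaders, 4 encode H2A and 1 encodes H2B. Hist2h2aa1, an H2A gene of the Hist2 cluster (GENCODE positions on mm10, here chr3:96245497-96246082, plus strand), stood at 377.07 TPM in replicate 1 and 205.05 in replicate 2. Its near neighbour Hist2h2aa2 (chr3:96239749-96240276, minus strand) stood at 131.10 and 121.47. The coding sequences of both are identical over 390 bases, and every stretch of 76 bases in the Hist2h2aa2 transcript occurs in another member. Both genes together had 10734 and 8363 read pairs, a sum that does not depend on how the reads were divided between them, and 508.17 and 326.52 TPM. Hist2h2aa1 also overlaps Gm20634, a processed transcript on its own strand at 9.92 and 9.54 TPM.

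Hist1h2ap, an H2A gene of the Hist1 cluster (chr13:21833026-21833507, minus strand), stood at 362.54 TPM in replicate 1 and 109.59 in replicate 2. It was next after Hist2h2aa1 in replicate 1 and the lowest of the 5 leaders in replicate 2, while Hist2h2aa1 was first in both. The coding sequence of Hist1h2ap is identical to that of Hist1h2ao, which was listed at 0 in both. Hist1h2bc, an H2B gene (chr13:23684199-23692908, plus strand), stood at 276.48 and 189.48 TPM. Hist1h2af, the other H2A leader (chr13:23533906-23534304, plus strand), stood at 110.34 and 133.46 TPM and was the sole one of the 5 with its higher value in replicate 2. By mean TPM the 5 ranked 254, 322, 326, 593 and 619 among all mouse genes.

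H2A genes together stood far above the other classes, and the classes were unequal although core histones enter the nucleosome in equal numbers. The 20 H2A genes summed to 1090.84 and 625.90 TPM, which was 61.4% and 54.8% of the family. The 16 H2B genes summed to 329.48 and 250.97 TPM, the 12 H3 genes to 252.55 and 187.65, and the 13 H4 genes to 69.11 and 52.69. The H2A sum was 15.8 times the H4 sum in replicate 1 and 11.9 times in replicate 2. The 6 H1 genes summed to 33.75 and 24.16 TPM, nearly all of it Hist1h1c. This order of the 5 classes was the same in both libraries. In expected read pairs, which are not scaled by length, H1 with 2609 and 2158 stood above H4 with 1121 and 1110.

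**Figure D2:**
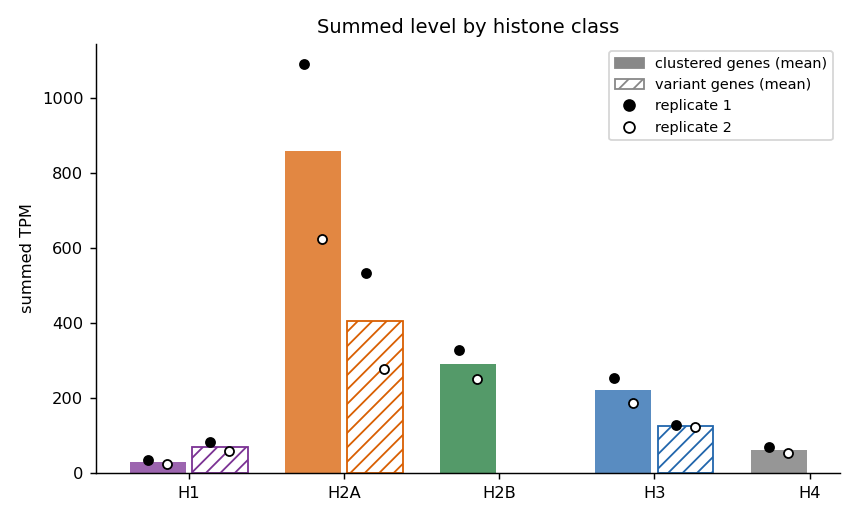
Summed TPM by histone class for the clustered genes (solid bars) and for variant genes outside the clusters (hatched bars, drawn for H1, H2A and H3), as the mean of both libraries with filled points for replicate 1 and open points for replicate 2. Clustered H2A genes are highest at 1090.84 and 625.90 TPM, and for H1 alone the variant genes lie above the clustered ones.

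Within H2A, 15 of 20 genes reached TPM 1 in both libraries. Below the leaders, in order of mean TPM, came Hist1h2ai at 22.01 and 7.57 TPM, Hist1h2ak at 7.56 and 12.62, and Hist1h2ah at 4.2 and 11.98. Hist1h2ad (12.28 and 2.49) and Hist1h2ae (11.75 and 2.54) followed, each far higher in replicate 1. Hist3h2a, at 7.77 and 6.31, had close values in both libraries. Mean levels of the 15 ran from 2.04 to 291 TPM, with a median of 7.39, so the class level was set by its 4 leaders.

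Within H2B, 10 of 16 genes reached the limit, and Hist1h2bc alone held most of the class. The next were Hist1h2bg at 19.20 and 24.69 TPM and Hist1h2bk at 10.02 and 11.20. Hist1h2bf, at 4.59 and 6.29, and Hist1h2bb, at 5.18 and 4.17, followed. The median of the 10 was a mean level of 4.10 TPM.

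H3 was the most evenly represented of the core classes, with 11 of 12 genes at the limit and the twelfth, Hist2h3c1, listed at 0 in both libraries. Hist2h3c2 led with 57.75 and 35.64 TPM, and Hist2h3b followed with 42.62 and 30.51. Hist1h3h stood at 27.56 and 25.72, Hist1h3i at 33.62 and 16.02, and Hist1h3d at 21.46 and 15.71. Hist1h3g (15.73 and 11.49), Hist1h3e (13.22 and 12.52) and Hist1h3c (9.15 and 13.56) lay near the class median of 13.6 TPM. The lowest of the 11 had a mean of 7.99 TPM. Hist2h3c1 and Hist2h3c2 share an identical coding sequence of 408 bases, and Hist2h3b is 99.8% identical to Hist2h3c2.

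H4 was low throughout, with 9 of 13 genes at the limit and a highest gene, Hist1h4d, of 16.53 and 14.17 TPM. Hist1h4h stood at 14.86 and 9.07 and Hist1h4c at 12.20 and 6.23. Hist2h4 stood at 1.97 and 1.67 TPM and shared no stretch of 76 bases with another member, so its value does not rest on divided reads. Clustered H4 genes are known to encode the same protein, and their coding sequences had a median identity of 93.9% over 78 pairs.

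Hist1h1c, which encodes the H1 subtype H1.2 (chr13:23738808-23740367, plus strand), stood at 33.02 and 22.16 TPM with 2586 and 2082 read pairs. It was the sole H1 gene at TPM 1 in both libraries. Its posterior standard deviation, the part of a count left undecided by reads shared between genes, was 0 in both. The other 5 H1 genes lay below 1 TPM in each library, among them Hist1h1t, an H1 gene of the testis, listed at 0 and 0.03. The deposited transcripts of Hist1h1d and Hist1h1e were 744 and 748 bases long, where M21 gives 7425 and 1930. That of Hist1h1c was 1560 bases long in both releases. The part of these lengths in the difference was not tested.

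The genes listed at 0 in both libraries numbered 6. Hist1h2aa and Hist1h2ba, the H2A and H2B genes of the testis, were among them, as were the sperm genes Prm1 and Tnp1 outside the family. For these Hist1 genes the limit that a count of 0 allows, 3 read pairs, was 0.282 and 0.291 TPM in replicate 1 and 0.220 and 0.227 in replicate 2, which covers counting error only. For Hist1h2ao, Hist1h4m and Hist2h3c1 the posterior standard deviation was above 0 in both libraries, and each shares its coding sequence with a detected copy, so their 0 depends on how the model divided shared reads. Hist3h2bb-ps, a pseudogene, was the sixth. Of the other members below the limit, the 3 of highest mean TPM were Hist1h2aj, Hist1h4b and Hist1h4a, at 8.52 and 0, 0 and 4.54, and 2.72 and 0.99 TPM.

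Hist1h2bc was the most abundant member with an annotated 3′ untranslated region and no stem-loop found in its spliced transcript, and is described here for the position of its end. GENCODE M21 gives it a first exon of 423 bases, an intron of 7554 bases (chr13:23684622-23692175) and a second exon of 733 bases. In the spliced transcript, no stretch after its coding sequence came nearer to the stem-loop consensus than 5 mismatches. Of the transcript's bases, 742 follow the stop codon and 733 form the second exon, so few of the 742 precede the intron. The stem-loops found in other members began 21 to 58 bases after the stop codon. The intron was not searched, so whether Hist1h2bc holds a stem-loop there is not known. Its second exon holds a poly(A) hexamer, printed with its flanks as the candidate end of the transcript, the hexamer in capitals.
Hist1h2bc: atgtatatatAATAAAtgtcatgtaa

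This hexamer starts at base 710 of the M21 transcript and ends 21 bases before the length of 736 bases that the deposited table gives for the transcript. Since the M21 transcript is 1156 bases long, where the deposited one ends in it is not known. The deposited splice junction table, on mm9, held 1 junction of exactly 7554 bases on the plus strand of chromosome 13, with 4586 reads. It ranked 665 among 340787 junctions, whose median was 2 reads, and 99.8% had fewer reads. The match rests on chromosome, strand and length, since no coordinates were converted between builds, and the table's reads are not tied to a library. On other chromosomes or the minus strand, 2 junctions had the same length, with at most 9 reads. Introns are annotated in 5 of the 67 genes, and those of the other 4 (Hist1h2be, Hist1h2bp, Hist1h2bq and Hist1h2br) were not assigned. Hist1h2be had no junction of the same length, and for the others, even where 1 junction fitted by chromosome, strand and length, 31 to 86 junctions elsewhere had that length too.

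Genes with an annotated stem-loop were not the lower part of the family. Of the 44 with one, 33 reached TPM 1 in both libraries, and their median was 5.90 TPM in replicate 1 and 4.36 in replicate 2. Of the 23 without one, 13 reached it, with medians of 3.41 and 1.31. The 44 held 68.3% and 61.3% of the family's TPM. Without an annotated one, Hist1h2bc and Hist1h2af led. Of the 23, 12 had no bases annotated after the stop codon, 4 had under 50, and 3 had no annotated coding sequence. In the 12, in Hist1h2af with 1 base and in Hist1h2ah with 2, no stem-loop could be found because the annotation stops too early. Hist2h3b had 37 bases, too few for the 16 bases of a stem-loop at the median start of 31.5 bases. For Hist1h2bc the intron, which follows soon after the stop codon, was not searched. The comparison therefore sorts genes in part by how far their annotation reaches.

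By annotated end, the largest part of the family's TPM lay on short transcripts. In 19 genes the M21 transcript holding the stem-loop ended within 50 bases after the stem-loop, and these summed to 966.73 and 512.54 TPM, or 54.4% and 44.9% of the family, with Hist2h2aa1 first. In 25 genes it reached further, and these summed to 246.20 and 186.99 TPM (13.9% and 16.4%), with Hist2h3c2 first. A 3′ untranslated region without a stem-loop was annotated in 4 genes, led by Hist1h2bc, which summed to 279.46 and 191.99 TPM. In 12 genes, led by Hist1h3h, the annotation ended at the stop codon, and in 4, led by Hist1h2af, it ended under 50 bases after it with no stem-loop. For those the annotation does not say where the RNA ended. A poly(A) hexamer (AATAAA, or its common variant ATTAAA) in the last 40 bases of an M21 transcript was found in 17 genes, with Hist1h1c first. These held 4.83% and 4.55% of the family's TPM, and 4782 and 4091 of its 39493 and 31566 read pairs. The ends are those of M21, while the TPM belongs to the deposited transcripts. Hist1h2bc is not among the 17, although its hexamer ends 21 bases before base 736, its deposited length.

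The share past the stem-loop was also counted by deposited transcript. Transcripts were placed where the GENCODE M4 length in the tables equalled the M21 length. The 12 that reached over 50 bases past the stem-loop held 8.10% and 8.40% of the family's TPM, and the 15 that ended within 50 bases held 51.7% and 42.5%. With a limit of 20 bases the share past the stem-loop was 39.9% over both libraries, and with 200 bases 6.93%. By expected counts it was 19.3%, and with all transcripts placed by the later release, an alternative chosen after seeing the data, 15.1%; the annotated transcript of Hist2h2aa1 reaches 35 bases past it. Another 22 transcripts had a different length in the 2 releases, so their end in the tables was not known, and they held 24.0% and 27.0%. A level on a short transcript does not show where the RNA ended, because reads past the last annotated base have no place to be counted.

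Between the libraries the family differed more than most genes. The log2 ratio of replicate 2 over replicate 1, from scaled counts (CPM), could be given for 52 members with a mean TPM of 1 or more. Its median was -0.40, beside -0.03 over the 11582 mouse genes at that level, and its SD was 1.46 beside 0.66. That SD includes Hist1h2aj (-5.35), Hist2h2ab (-4.75) and Hist1h4b (4.92), each listed at 0 read pairs in 1 library. Their ratios depend on the prior count, and the SD without them was not computed. In 37 of the 52 the value was higher in replicate 1, where 52.7% of all genes at that level were. A ratio of 2-fold or more was found in 9 members with the higher value in replicate 1 (5.67% of all genes) and in 3 with the higher value in replicate 2 (2.77%), 12 in all where 8.44% of all genes were past it in either direction. With no replicate within either library, these ratios have no test, and their intervals (exact Clopper-Pearson, 95%) cover counting error only. The interval lay wholly beyond 2-fold for 8 of the 9 and for 2 of the 3. At a mean TPM of 5 or more, 5 and 1 of 33 members were past 2-fold. The share of all genes past it at that level was not computed.

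The members past 2-fold were mostly sparse. Of 37 members with under 300 read pairs in both libraries, 11 were past 2-fold in either direction, beside 16.2% of the 1887 mouse genes of that depth. The limit of 300 read pairs was chosen after the values were seen. The exception was Hist1h2ap, with 5790.69 and 2186.84 read pairs and a log2 ratio of -1.67 (-1.75 to -1.60). Its posterior standard deviation was 0.408% and 0.893% of the count, so within the authors' model the division of shared reads leaves this ratio little room. Yet 92.6% of its stretches of 76 bases occur in another member, and its coding sequence is identical to that of Hist1h2ao. Whether another model would divide these reads otherwise was not tested.

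By class, the difference lay mainly with H2A. Of 17 H2A genes with a ratio, 14 were lower in replicate 2, with a median of -0.85, and 7 of the 9 genes past 2-fold in that direction encode H2A. Of these 7, 4 (Hist1h2ai, Hist1h2ad, Hist1h2ae and Hist1h2an) had a posterior standard deviation over 10% of the count in either library, and so did Hist1h2aj in replicate 1, at 24.3%. Without the members over 10% that have 10 read pairs in both libraries, 5 of 42 members were past 2-fold in this direction and 1 in the other. No share over all genes was computed for that selection. H3 genes had a median of -0.39 with 9 of 11 lower in replicate 2 and none past 2-fold, although Hist1h3i, at -0.98, was at -1.03 with DESeq2 size factors and -1.02 by TPM. With DESeq2 size factors 11 and 3 of 52 members were past 2-fold in all, and the share of all genes was not computed with them. H4 genes had a median of -0.24 with 8 of 11 lower. H2B genes differed in direction, with a median of 0.25 and 5 of 12 lower in replicate 2, and Hist1h2bc, the H2B leader, was among those 5 at -0.53 (-0.57 to -0.48). The difference between the classes was not tested.

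**Figure D3:**
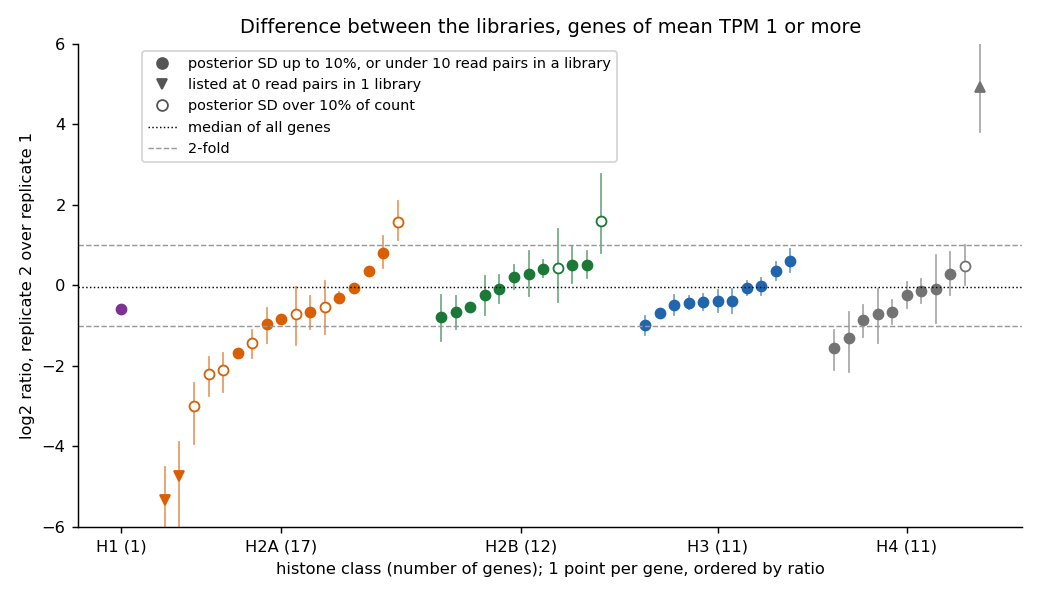
Log2 ratio of replicate 2 over replicate 1 for the 52 clustered histone genes of mean TPM 1 or more, 1 point per gene within its class, with the counting interval as a line that runs off the axis where it has no end. Open points mark genes with 10 or more read pairs in both libraries and a posterior standard deviation over 10% of the count in either. Triangles mark genes listed at 0 read pairs in 1 library, whose plotted ratio depends on the prior count. Most of the points under the lower 2-fold line belong to H2A.

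The lowest and highest ratios came from genes at 0 in 1 library. Hist1h2aj, an H2A pseudogene, had 72.02 read pairs in the first library and was listed at 0 in the second, and Hist2h2ab, an H2A gene, had 47 and 0. Hist1h4b, an H4 gene, had 0 and 64.07 read pairs. The exact counting interval of the log2 ratio began at 3.81 for Hist1h4b and ended at -3.88 for Hist2h2ab, and it has no other end. The posterior mean count of Hist1h2aj in replicate 2 was 5.14 rather than 0, so its 0 depends on how shared reads were divided. For Hist2h2ab the posterior mean count was 47 and 0 and few of its stretches of 76 bases occur elsewhere (8.40%). The next lowest ratio, -3.00 (-3.94 to -2.43), was that of Hist1h2an at 12.18 and 1.27 TPM, and the next highest were 1.59 for Hist1h2bn and 1.57 for Hist1h2ah.

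Counts were less certain here than over all mouse genes, by the part that shared reads leave undecided. Of 51 members with 10 or more read pairs in both libraries, 10 had a posterior standard deviation above 10% of the count in either library, beside 1.47% of 15271 mouse genes. With limits of 5% and 20% the count was 21 and 5. Of these 10, 7 encode H2A, 2 H2B and 1 H4. The largest were Hist1h2ah at 45.4% in replicate 1, Hist1h2ad at 42.4% in replicate 2 and Hist1h2an at 36.6% in replicate 2. Of the 12 members past 2-fold, 6 were among these 10, and 9 had enough read pairs in both libraries to be considered. In the 10, a median of 75.2% of the stretches of 76 bases occurred in another member, and in the other 41 a median of 38.1%.

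Coding sequences were nearly the same within a class. Median identity was 96.7% over 106 pairs of H2A coding sequences, 97.6% over 91 of H2B and 97.2% over 66 of H3. In 5 pairs the coding sequences were identical: Hist1h2ao with Hist1h2ap, Hist1h2bq with Hist1h2br, Hist1h4m with Hist1h4n, Hist2h2aa1 with Hist2h2aa2, and Hist2h3c1 with Hist2h3c2. Of the members of these pairs, only Hist1h4n had 10 read pairs in both libraries and a posterior standard deviation over 10% of the count, at 12.4% in replicate 1, while those of Hist2h2aa1 (1.56% and 2.47%) and Hist2h3c2 (1.14% and 1.63%) were small.

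Many H2A and H2B genes lie back to back, with transcription starting on both sides of a short shared stretch, and their levels could be compared within the pair. The M21 annotation held 13 pairs of members on opposite strands with starts up to 1000 bases apart, each of 1 H2A and 1 H2B gene. The gap between the starts ran from 172 to 305 bases, with a median of 250. In 8 of the 13 both genes reached a TPM of 1 in both libraries. The H2A gene was higher in both libraries in 3 of these, the H2B gene in 3, and in 2 the order turned between the libraries. The higher gene exceeded the lower by a median of 4.49-fold in replicate 1 and 3.32-fold in replicate 2.

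The widest gaps went in opposite directions. Hist1h2bc, at 276.48 and 189.48 TPM, stood 95.7-fold and 101-fold above its H2A partner Hist1h2ac at 2.89 and 1.88. The deposited transcript of Hist1h2ac was 476 bases long where M21 gives 2482, and reads past its last deposited base had no place to be counted. Its posterior standard deviation was 11.5% of the count in replicate 2. Hist1h2ap, at 362.54 and 109.59 TPM, stood 179-fold and 91.3-fold above its H2B partner Hist1h2br at 2.03 and 1.20. In read pairs, which are not scaled by length, Hist1h2ap had 5790.69 and 2186.84 and Hist1h2br had 123.46 and 93.13. The deposited transcripts of Hist1h2br were 1256 and 2197 bases long, without its M21 transcript of 381 bases. Of its stretches of 76 bases, 87.5% occur in another member. A shared start region was thus found with very unequal measured levels on either side. The 2 pairs whose order turned were Hist1h2ad with Hist1h2bf and Hist1h2ah with Hist1h2bk. Each holds an H2A gene with a posterior standard deviation over 10% of its count in either library. This does not set them apart, since Hist1h2ac, Hist1h2ae, Hist1h2ag and Hist1h2ai, of pairs whose order did not turn, were over 10% too.

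**Figure D4:**
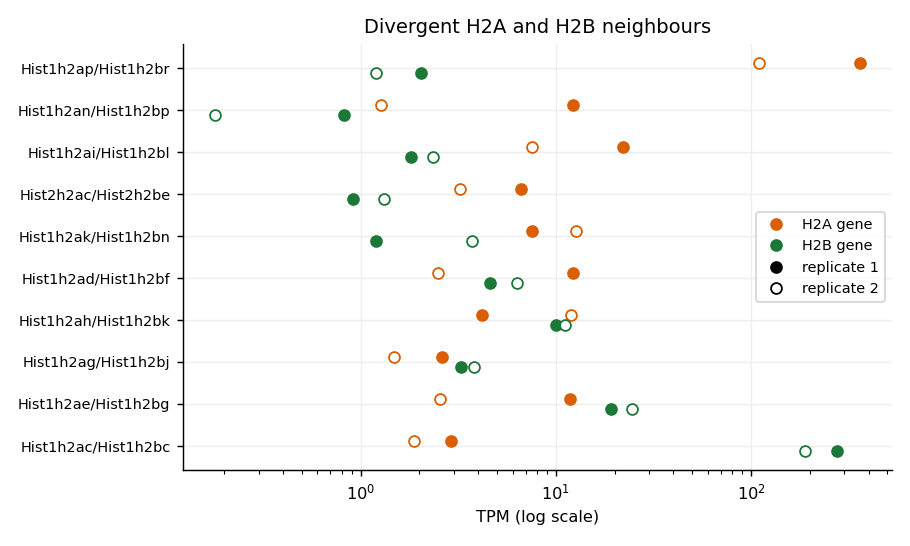
TPM on a log axis for the 10 divergent pairs in which both genes were above 0 in both libraries, H2A genes in orange and H2B genes in green, filled for replicate 1 and open for replicate 2. Hist1h2ap with Hist1h2br at the top and Hist1h2ac with Hist1h2bc at the bottom show the widest separations, in opposite directions.

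The stretch between Hist1h2ac and Hist1h2bc is shown because it is shared by the genes of the pair with the most unequal levels in favour of H2B. It is the 250 bases between their M21 starts, from RefSeq on GRCm38.p6, chr13:23683949-23684198, read on the minus strand toward Hist1h2ac. Capitals mark the TATA box (the letters TATAAA), the CCAAT box and the octamer (the letters ATTTGCAT), each on either strand.
Hist1h2ac and Hist1h2bc: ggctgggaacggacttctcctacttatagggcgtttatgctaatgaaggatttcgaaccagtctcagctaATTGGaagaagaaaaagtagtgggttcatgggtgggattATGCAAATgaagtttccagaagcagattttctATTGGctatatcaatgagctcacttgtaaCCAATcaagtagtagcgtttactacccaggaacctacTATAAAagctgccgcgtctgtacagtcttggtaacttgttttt

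This stretch held 1 TATA box, 3 CCAAT boxes and 1 octamer. The start region of Hist2h2aa1, the most abundant member, is given for contrast, from the same source at chr3:96245247-96245496 on the plus strand.
Hist2h2aa1: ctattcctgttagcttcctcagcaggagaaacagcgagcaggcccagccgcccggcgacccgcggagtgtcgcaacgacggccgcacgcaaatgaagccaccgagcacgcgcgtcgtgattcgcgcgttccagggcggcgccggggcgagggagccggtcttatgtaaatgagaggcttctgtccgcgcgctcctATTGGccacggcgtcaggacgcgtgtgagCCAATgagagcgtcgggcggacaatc

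It held 2 CCAAT boxes and neither of the other motifs. RefSeq promoter windows of 300 bases, 250 before and 50 after the start, were matched to 59 of the 67 members. The TATA box was present in 35 of them (59.3%), where 13.6% of 32851 windows of all genes held it. The CCAAT box was present in 50 (84.7% against 37.4%), in every H1, H2A, H2B and H3 window matched but in 3 of 12 for H4. The octamer, a site known from H2B promoters, was present in 11 (18.6% against 1.74%), 7 of 18 H2A and 4 of 13 H2B windows, and in none of the other classes. All motifs were searched on both strands, none is contained in another, and divergent neighbours share part of their windows. A match describes the letters only and does not show a bound site.

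Variant histones, whose genes lie outside the clusters and in general give polyadenylated mRNA, are the natural measure beside the clustered genes. Of 18 such genes listed, 11 reached TPM 1 in both libraries, beside 48.9% of protein-coding genes. The 18 summed to 743.89 and 458.30 TPM, below the clustered genes in both. The highest by mean TPM were H2afj at 226.29 and 79.04, H2afz, which encodes H2A.Z, at 159.68 and 107.41, and H3f3b, which encodes H3.3, at 68.78 and 58.14. H1f0, the linker histone of non-dividing cells, stood at 72.46 and 50.81, above Hist1h1c. Clustered genes held 67.2% and 69.3% of the summed H2A TPM, 66.3% and 60.5% of H3 and 29.2% and 29.3% of H1. The variants' median log2 ratio between the libraries was -0.34, with 9 of 11 higher in replicate 1, beside 52.7% of all genes. Past 2-fold were 2 of the 11, H2afj and H2afx, both higher in replicate 1, beside 5.67% of all genes in that direction.

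The factors that process, degrade and transcribe replication-dependent histone mRNA were present at widely different levels, and the share of all protein-coding genes at TPM 1 in both libraries, 48.9%, stands beside each count. Of 28 genes for 3′ processing, 22 reached it. Snrpb, a core protein of small nuclear particles, was the highest at 188 and 154 TPM. Slbp, the stem-loop binding protein, stood at 9.72 and 6.01 TPM, and Lsm10 and Lsm11, of the U7 particle, at 14.2 and 11.3 and at 2.48 and 1.66. Sympk, a scaffold of the cleavage complex, stood at 56.4 and 43.7. The U7 RNA gene Rnu7 was listed at 0, but a transcript of that size lies below the size selection. Of 9 decay genes measured, 5 reached the limit, among them Upf1 at 19.6 and 16.9, while Eri1, the exonuclease that trims the stem-loop, stood at 0.22 and 0.39. Of 10 transcription factors and cell cycle regulators 8 reached it, with Cdkn1a, a kinase inhibitor, highest at 132 and 124, but Npat, the coactivator of the clustered genes, stood at 0.22 and 0.43.

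Of 24 genes of S phase and proliferation, 20 reached TPM 1 in both libraries, beside 48.9% of protein-coding genes. The median of the 24 was a mean level of 5.86 TPM. Ube2c, a ubiquitin-conjugating enzyme of mitosis, was the highest by mean at 29.5 and 31.0. Pcna, the replication clamp, stood at 26.6 and 21.7 and Ccna2 at 30.2 and 17.6, while Mki67, at 0.19 and 0.49, did not reach the limit. The median log2 ratio of these 20 genes was 0.11, with 9 higher in replicate 1 and 11 in replicate 2, beside -0.40 in the clustered histone genes. Histone chaperones had 11 of 16 at the limit, beside the same 48.9%, and a median ratio of 0.17.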

How the data were processed

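Stomach polyadenylated RNA was measured in 2 libraries of 1 group, as the labels give them. The authors deposited expected counts of read pairs and TPM per gene and transcript, with a posterior standard deviation of each count, on mm10 with GENCODE M4 models per the file headers and README. Names for the aligner and quantifier were not given in the sources used here. For splice junctions, the deposited counts of reads are on mm9. Symbols, positions and transcript sequences came from GENCODE M21 and promoters from RefSeq. Members and lists were chosen with earlier results of these data known. Named genes are members of TPM 1 or more in both libraries, the extremes of each measure, and of each list some of the 6 highest by mean TPM and of those below TPM 1. Slbp and Lsm11 were added after their values were seen.

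Ratios used rounded expected counts of mouse genes, TMM scaling (edgeR 4.0.16, prior count 2) and exact 95% intervals, and the script was checked on simulated data. DESeq2 1.42.0 size factors, spike-in scaling, TPM with a pseudocount of 1, posterior means, other limits and leaving out a library were alternatives. TPM is relative to all transcripts, and values of genes with short effective length (a median of 274 and 286 bases over the members) depend on the fragment lengths assumed. PCR copies cannot be recognised, so intervals cover counting error only.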

Additional observations from a re-analysis of the deposited data

How the results depend on the processing

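Values are means of both libraries where 1 is given. The number of clustered histone genes detected was 25 at a TPM limit of 5, and 48 and 50 with either library left out. Their summed TPM was 2257.23 with Clps and Pgc taken out of the total, and 1141.37 and 1775.73 with 1 library. The top 5 held 66.5% to 70.8% with 1 library. The members past 2-fold numbered 6 of 33 (5 higher in replicate 1 and 1 in replicate 2) at a mean TPM of 5 or more. They also numbered 6 of 42 (5 and 1) without members of posterior standard deviation over 10%. No share over all genes was computed for these settings. The share of TPM past the stem-loop, 8.25%, was 39.9% with a limit of 20 bases, 7.20% with 100, 6.93% with 200, 19.3% by expected counts and 8.10% to 8.40% with 1 library. It was 15.1% with all transcripts placed by the later release, an alternative chosen after seeing the data, as was a tolerance of 2 bases for the Hist1h2bc junction, which gave 4589 reads. Counts with a large posterior standard deviation numbered 21 at 5%, 5 at 20%, 1 with 100 read pairs or more, and 8 to 10 with 1 library. The cause of these shifts was not tested. The median ratio stayed between -0.44 and -0.36, and only the ratio of Hist1h3h changed sign, from -0.02 to 0.02 with spike-in totals, within its counting interval. Of 52 ratios, 3 moved by TPM and 1 by posterior mean count, and none by DESeq2 or spike-in scaling. Of 46 levels, 38 moved without Clps and Pgc and none by posterior mean TPM. No paired analysis was possible because both libraries belong to 1 group.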
